A study of Rattus norvegicus with 6 samples.

Results

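The genes described here encode the proteins of the synaptic vesicle and of the release machinery at the presynaptic terminal, apart from the SNARE proteins themselves. They were chosen by name: the synaptotagmins, synapsins, SV2 proteins, RIM proteins, syntaxin-binding proteins, complexins and Unc13 proteins, together with single genes such as Syp, Bsn, Nsf, Dnm1, Doc2a and Doc2b. All 57 were found among the 17066 genes listed, each under its current symbol. The study addressed the neuronal functions of cyclin Y (CCNY), a cyclin that is also expressed in neurons, which do not divide. Neurons from the hippocampus of Sprague-Dawley rats at embryonic day 18 were grown in culture and infected with lentivirus at day 5 or 6 in vitro. The virus carried EGFP alone (EGFP, the control), CCNY-WT-EGFP (CCNY-WT, overexpression) or CCNY-shRNA-EGFP (CCNY-shRNA, knockdown), so that neurons of all 3 groups were infected and carried EGFP. RNA was taken at day 14 in vitro and sequenced in 2 libraries per group, called replicates 1 and 2. The vectors were built on the lentiviral vector FUGW. Whether the 2 libraries of a group came from separate cultures is not stated, so the p-values below measure only the spread between these libraries, which may be technical.

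Neurotransmitter is stored in synaptic vesicles, which synapsins hold in clusters and which dock at an active zone built from RIM, Bassoon, Piccolo and ELKS proteins. Syntaxin-binding, Unc13 and complexin proteins prepare and hold the SNARE complex, and synaptotagmins and Doc2 proteins sense the calcium that triggers fusion. NSF and its SNAP adaptors then take the SNARE complexes apart, and dynamin, amphiphysin and synaptojanin recover the vesicle membrane.

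Expression was given as FPKM, which counts sequenced fragments relative to transcript length and to the size of the library, so levels of different genes can be compared per length. The depth of each library relative to EGFP replicate 1 was estimated from the steps between low FPKM values and ranged from 0.819 to 1.33. Ccny checked the labels: its FPKM was 43.1 and 42.3 (EGFP), 108 and 109 (CCNY-WT) and 5.98 and 6.19 (CCNY-shRNA). Its log2 difference from EGFP was 1.35 ± 0.066 (SE, limma adjusted p = 0.000461) in CCNY-WT and -2.81 ± 0.066 (SE, limma adjusted p = 1.57e-06) in CCNY-shRNA. Neuron markers were abundant in all 6 libraries, with a summed FPKM of 3744 to 3867 over 8 genes, and 5 of 6 microglia markers lay under 1 in every library. The number of genes at an FPKM of 1 or more was similar in all libraries, from 9955 to 10002. CCNY-WT replicate 1 stood apart by 1 gene, Bc1, which took 15.1% of its FPKM sum, and by its depth of 1.33.

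In EGFP neurons the genes of the release machinery differed widely in level. The mean FPKM was at least 100 for 20 members, 10 to under 100 for 20, 1 to under 10 for 8, and 9 were listed under 1, 2 of them at 0 in all libraries. Syp, which encodes synaptophysin, an abundant membrane protein of the vesicle, was the highest member at an FPKM of 1641 ± 47.1 (SD, n = 2). The calcium sensor gene Syt1 followed at 648 ± 30.7, and Cplx2, a complexin gene, at 630.4 ± 6.91. The ranges of Syt1 and Cplx2 over the EGFP libraries overlapped, so their order is not resolved. Syt11, a synaptotagmin that does not bind calcium, stood at 469 ± 6.91. The synapsin genes Syn2 and Syn1 had an FPKM of 361 ± 9.61 and 321 ± 7.31, with Nsf, the ATPase of SNARE disassembly, between them at 344 ± 8.66. These 3 did not overlap in EGFP. Sv2a, a vesicle glycoprotein, was at 289.7 ± 21.8 and Napb, the gene of beta-SNAP, at 283 ± 43.6, and their ranges overlapped. The highest endocytosis gene was Dnm1 (dynamin 1) at 261 ± 2.55, and the highest active zone gene was Erc1 (ELKS) at 101 ± 0.641.

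Within a family, levels differed widely between members. Among the fast calcium sensors, Syt1 exceeded Syt9, at 11.5 ± 1.32, and Syt2, at 0.544 ± 0.0336. Among the synapsins, Syn3 was at 6.27 ± 0.169, far under Syn1 and Syn2. Among the Unc13 priming genes, Unc13b was at 9.37 ± 0.569 while Unc13c and Unc13d lay under 1 in every library. Unc13a, the gene of Munc13-1, was listed at 0 in all 6 libraries, as was Syt8. Such a 0 can also be a failed estimate, so these 2 are counted among the genes listed under 1 but no level is drawn from them. Syt15, Cplx3 and Cplx4 also lay under 1 throughout. The 7 genes listed under 1 in every library, with Unc13a and Syt8 among them, and Syt2, whose highest value was 1.07, were not tested, which left 49 members with an FPKM of at least 1 in at least 2 libraries. Syt10 passed this filter only through CCNY-WT.

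**Figure D1:**
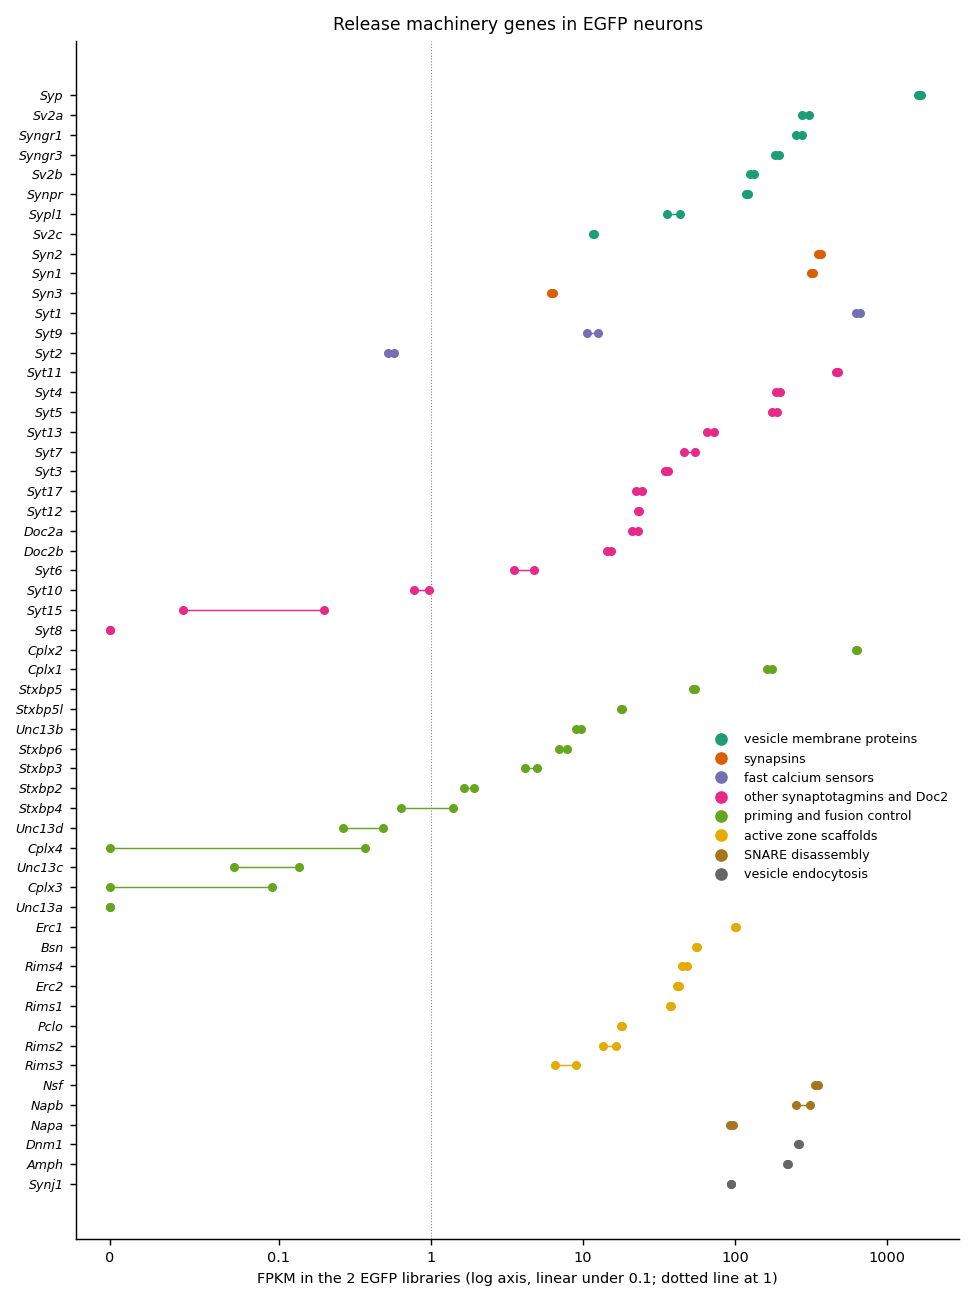
FPKM of the members whose values are reported, in the 2 EGFP libraries (points joined by a line), grouped and coloured by role, on a log axis that is linear under 0.1. Syp lies at the top of the range, and Unc13a and Syt8 lie at 0.

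The stretches of 250 bases before the gene start are shown for 4 members. Syt11 and Sv2b were picked from the 14 members with lower values in CCNY-shRNA, at an unadjusted limma p under 0.05. Syp and Syt1 are the most abundant members. Doc2b, also among those 14, had no promoter entry. The stretches come from RefSeq (build GRCr8, a later build than that of the FPKM values). They are written 5′ to 3′ on the strand of the gene. Capitals mark the GC box GGGCGG on either strand, to which the factor Sp1 is known to bind.
Syt11 (chr2:176529776-176530025, minus strand): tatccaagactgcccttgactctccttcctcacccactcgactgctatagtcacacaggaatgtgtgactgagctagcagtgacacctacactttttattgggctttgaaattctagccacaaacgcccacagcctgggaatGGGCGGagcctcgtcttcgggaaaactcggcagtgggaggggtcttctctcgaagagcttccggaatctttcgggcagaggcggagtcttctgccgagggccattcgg
Sv2b (chr1:138562259-138562508, minus strand): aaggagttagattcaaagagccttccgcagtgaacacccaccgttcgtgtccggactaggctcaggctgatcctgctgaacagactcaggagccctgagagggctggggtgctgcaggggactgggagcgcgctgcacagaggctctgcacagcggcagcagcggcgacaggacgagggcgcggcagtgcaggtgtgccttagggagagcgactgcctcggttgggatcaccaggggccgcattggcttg
Syp (chrX:17536450-17536699, minus strand): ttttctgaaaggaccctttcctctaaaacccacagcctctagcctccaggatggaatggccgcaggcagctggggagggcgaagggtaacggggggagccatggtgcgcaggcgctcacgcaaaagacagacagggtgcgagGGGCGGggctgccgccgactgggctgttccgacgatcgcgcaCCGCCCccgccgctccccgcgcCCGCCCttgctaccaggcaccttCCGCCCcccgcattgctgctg
Syt1 (chr7:46244214-46244463, minus strand): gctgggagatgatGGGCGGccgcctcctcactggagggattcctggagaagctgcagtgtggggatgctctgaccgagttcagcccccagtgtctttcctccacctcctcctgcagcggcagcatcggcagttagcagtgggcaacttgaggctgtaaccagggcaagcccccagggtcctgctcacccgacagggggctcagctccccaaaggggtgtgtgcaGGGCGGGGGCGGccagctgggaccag
The GC box occurred 1 time before Syt11, 0 times before Sv2b, 4 times before Syp and 3 times before Syt1, where 2 of the matches adjoin without a shared base. Of the 57 members, 42 had an entry in the promoter table, and 24 of these (57.1%) held at least 1 GC box, against 30.5% of all 33469 entries. The TATA box TATAAA was found before 2 of 42 members (4.76%) and before 12.9% of all entries. The cAMP response element TGACGTCA was found before 2 of 42 members (4.76%) and 1.59% of all entries. Median GC content was 64.6% for the members and 51.2% over all entries. All entries were counted without a limit to expressed genes or to 1 entry per gene, unlike the members. The shares therefore do not set the members apart from other expressed genes. These matches describe letters in the window and no binding was measured.

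The comparison of CCNY-shRNA with EGFP describes these transcripts after knockdown of CCNY. The control virus carried EGFP alone and no control shRNA is described. Loss of CCNY and other effects of the shRNA therefore cannot be told apart. Doc2b, which encodes a high-affinity calcium sensor of spontaneous release, was lower, and it was the only member past the adjusted threshold. It passed narrowly (limma adjusted p = 0.0456), and the call was lost with upper quartile scaling or with the replicate number as a block. Other members, among them Syt11, Syt4, Syt13, Syt3, Syt7, Syt6, Sv2b and Synpr, had lower values at an unadjusted p under 0.05 only. Abundant genes varied. Syp, Sv2a, Syn2, Cplx2 and Dnm1 differed from EGFP by less than 0.05 on the log2 scale. Syt11, Syt1 and Syn1 differed by -0.42, -0.13 and -0.13, and Napb by 0.12. In lysates of whole cultures, fewer cells of a type and less RNA per cell cannot be told apart. FPKM values under 1 were set to 1, log2 values were compared with limma in 1 fit over all 6 libraries, and p-values were adjusted over all 10188 genes tested, with a threshold of 0.05. At that threshold 1 of 49 members was lower and 0 higher, against 0.579% of all genes tested lower and 0.167% higher. At an unadjusted p under 0.05, 14 members (28.6%) were lower and 2 (4.08%) higher, against 9.36% and 9.20% of all genes tested. Both CCNY-shRNA libraries lay under both EGFP libraries for 23 members (46.9%) and above both for 5 (10.2%), against 24.5% and 23.9% of all genes. A mean log2 difference of at least 0.33 was reached by 5 members lower (10.2%), namely Doc2b, Sv2c, Syn3, Syt11 and Syt6, and by 1 member higher (2.04%), Stxbp2, against 7.59% and 5.52% of all genes. The median log2 difference was 0 over all genes tested, with 5076 lower and 5092 higher. Over the members it was -0.067, with 34 lower and 14 higher. This median rested on CCNY-shRNA replicate 2: without it the median was -0.0022, with 25 members lower and 23 higher, and without CCNY-shRNA replicate 1 it was -0.14. With 2 libraries per group an exact permutation test of a single value cannot go below p = 0.333, so no such test was run.

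By role, the median log2 difference in CCNY-shRNA was lowest among the other synaptotagmins and Doc2 genes, at -0.24, with 10 of 12 lower. It was -0.13 among the 8 vesicle membrane genes, -0.13 among the 3 synapsins, -0.11 among the 2 fast sensors tested, -0.067 among the 3 endocytosis genes and -0.063 among the 8 active zone genes. It was 0.024 among the 10 genes of priming and fusion control and 0.12 among the 3 genes of SNARE disassembly. These medians are a description over small groups and carry no test.

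Markers of other cell classes also differed between the libraries. The summed FPKM of 6 GABAergic markers was 2145 and 2260 (EGFP), 2162 and 2185 (CCNY-WT) and 1853 and 2019 (CCNY-shRNA). The 5 tested all had lower means in CCNY-shRNA than in EGFP, and Gad2, an enzyme of GABA synthesis, passed the threshold, with a log2 difference of -0.41 ± 0.049 (SE, limma adjusted p = 0.0226). The 7 astrocyte markers summed to 535 and 574 (EGFP), 568 and 563 (CCNY-WT) and 468 and 540.0 (CCNY-shRNA), with 5 of 7 lower in CCNY-shRNA. The 8 oligodendrocyte lineage markers summed to 44.5 and 44.2 (EGFP), 47.6 and 41.9 (CCNY-WT) and 40.3 and 37.2 (CCNY-shRNA). Of the 6 fibroblast and vascular markers, 4 lay under 1 in every library. The 5 glutamatergic markers summed to 1338 and 1405 (EGFP), 1319 and 1312 (CCNY-WT) and 1349.8 and 1346 (CCNY-shRNA), with 3 of 5 higher in CCNY-shRNA. Among them Neurod2, a transcription factor gene of excitatory neurons, had a log2 difference in CCNY-shRNA of 0.40 (limma adjusted p = 0.0819) and Camk2a, a kinase gene of the same cells, of -0.18 (limma adjusted p = 0.214). The part of these differences in the lower values of the release machinery genes in CCNY-shRNA was not tested.

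**Figure D2:**
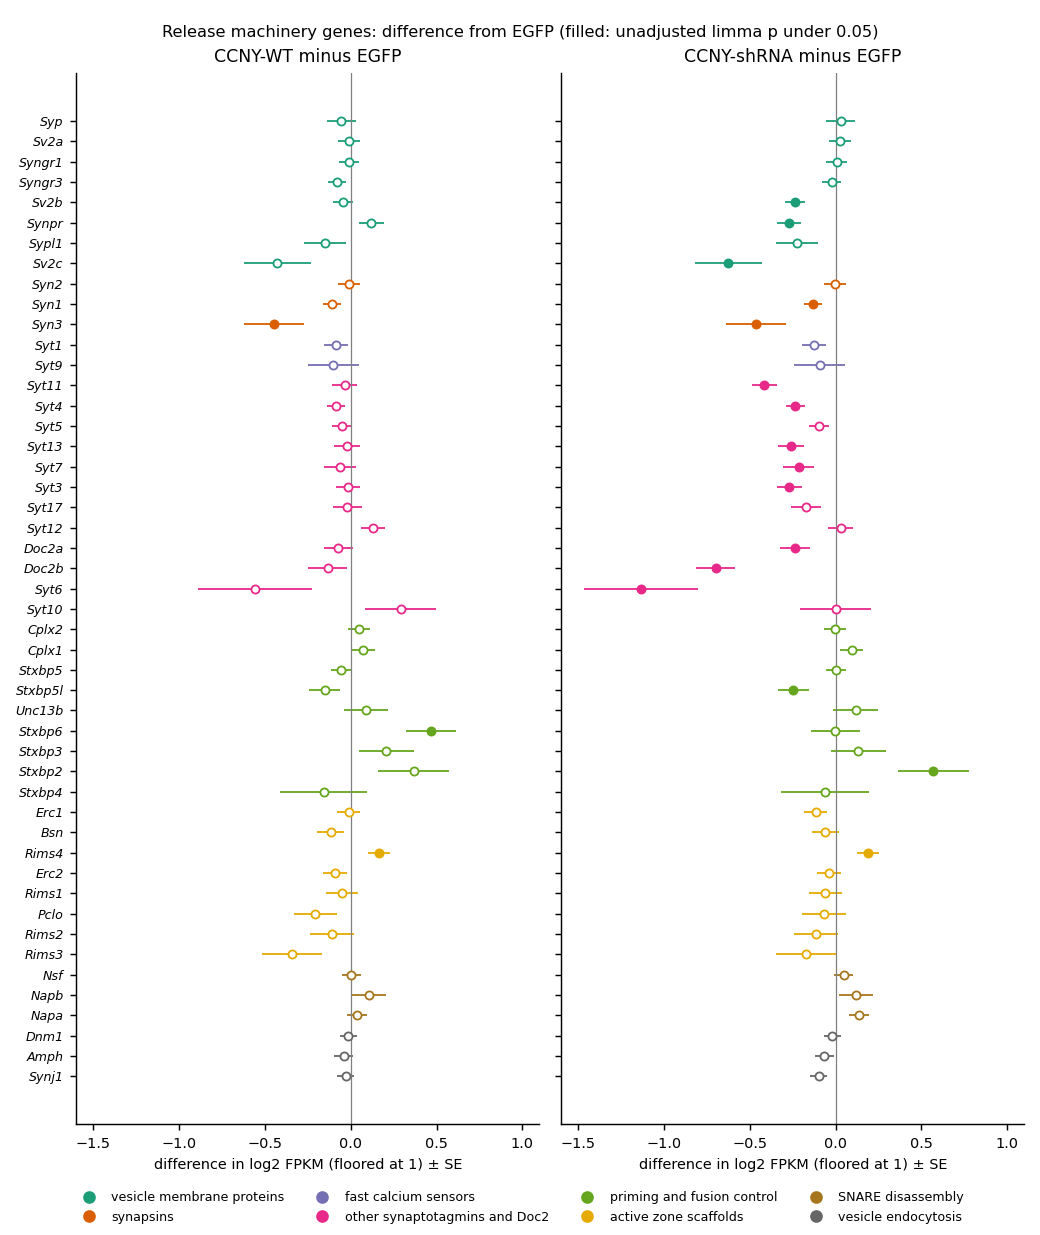
Difference in log2 FPKM from EGFP with its standard error for the members tested whose values are reported, in CCNY-WT (left) and CCNY-shRNA (right), each in 2 libraries against the same 2 EGFP libraries. Filled points have an unadjusted limma p under 0.05, and in the right panel 8 of the 16 filled points are synaptotagmins or Doc2 genes with negative values, where Syt6 reaches -1.13 and Doc2b -0.70.

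Doc2b had an FPKM of 14.3 and 15.4 (EGFP), 12.9 and 14.2 (CCNY-WT) and 8.63 and 9.71 (CCNY-shRNA). Both CCNY-shRNA libraries lay under all 4 others, and the log2 difference from EGFP was -0.70 ± 0.11 (SE) with a 95% interval of -0.96 to -0.44 (limma adjusted p = 0.0456). This call was close to the threshold: it was kept in 4 of 15 alternative analyses, the adjusted p was 0.0547 with the replicate number as a block, and it lay between 0.105 and 0.343 when any 1 library was left out. Doc2a, the related sensor gene, was at 20.9 and 22.9 (EGFP), 20.5 and 21.2 (CCNY-WT) and 18.2 and 18.9 (CCNY-shRNA). Its CCNY-shRNA libraries were again the lowest, by a smaller log2 difference of -0.24 ± 0.085 (SE), unadjusted p = 0.0239, adjusted p = 0.195.

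Among the synaptotagmins, Syt11 showed the next smallest p of all members. Its FPKM was 464 and 474 (EGFP), 470.3 and 445 (CCNY-WT) and 373 and 331 (CCNY-shRNA). The CCNY-shRNA libraries did not overlap with the others, and the log2 difference from EGFP was -0.42 ± 0.072 (SE), unadjusted p = 0.000435, adjusted p = 0.0527, which missed the threshold. Syt11 acts in vesicle and endosome traffic and is related to Syt4, whose FPKM was 186 and 197 (EGFP), 184 and 177 (CCNY-WT) and 164 and 162 (CCNY-shRNA). The log2 difference of Syt4 was -0.23 ± 0.055 (SE), unadjusted p = 0.00277, adjusted p = 0.0902, with both CCNY-shRNA libraries lowest. Syt13, another synaptotagmin that does not bind calcium, was at 73.3 and 65.4 (EGFP), 71.6 and 64.9 (CCNY-WT) and 58.4 and 57.1 (CCNY-shRNA), and its log2 difference was -0.26 ± 0.076 (SE), unadjusted p = 0.00897, adjusted p = 0.137. Its CCNY-shRNA libraries lay under all others, while EGFP and CCNY-WT overlapped.

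The calcium-binding synaptotagmins outside the fast group included 3 more members at an unadjusted p under 0.05. Syt3, a high-affinity sensor, had an FPKM of 34.6 and 36.1 (EGFP), 33.5 and 36.4 (CCNY-WT) and 29.7 and 28.9 (CCNY-shRNA). The log2 difference of Syt3 was -0.27 ± 0.072 (SE), unadjusted p = 0.00574, adjusted p = 0.117. Syt7, the sensor of slow, asynchronous release, had an FPKM of 46.4 and 54.9 (EGFP), 49.2 and 47.4 (CCNY-WT) and 45.7 and 41.2 (CCNY-shRNA) and a log2 difference of -0.22 ± 0.092 (SE), unadjusted p = 0.0470, adjusted p = 0.261. For both genes the CCNY-shRNA libraries lay under all others, for Syt7 by a narrow gap to EGFP replicate 1. The value of Syt7 was -0.34 without EGFP replicate 1, -0.095 without EGFP replicate 2 and -0.14 without CCNY-shRNA replicate 2. Syt6, a relative of Syt3 that was expressed at a low level, had an FPKM of 4.74 and 3.53 (EGFP), 2.33 and 3.31 (CCNY-WT) and 1.35 and 2.58 (CCNY-shRNA). Its CCNY-shRNA libraries differed widely from each other and overlapped with CCNY-WT, and the log2 difference was -1.13 ± 0.33 (SE), unadjusted p = 0.00962, adjusted p = 0.141. It was -0.67 without CCNY-shRNA replicate 1, and more negative without CCNY-shRNA replicate 2. Syt5, Syt12 and Syt17 did not reach an unadjusted p under 0.05, with log2 differences of -0.099, 0.028 and -0.17. The fast sensors Syt1 and Syt9 differed by -0.13 and -0.093 (95% intervals -0.28 to 0.031 and -0.44 to 0.25).

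Syt10, a close relative of Syt6, was near the limit of detection. Its FPKM was 0.970 and 0.777 (EGFP), 1.28 and 1.17 (CCNY-WT) and 0.148 and 0.210 (CCNY-shRNA). The floor at 1 hides this difference and leaves a log2 difference of 0 in CCNY-shRNA. With 0.1 added in place of the floor the log2 difference was -1.80, and it did not pass the threshold (limma adjusted p = 0.107). The smallest whole numbers of fragments that give these values are 8 and 7 (EGFP), 14 and 9 (CCNY-WT) and 1 and 2 (CCNY-shRNA). Per relative depth this gave a ratio of CCNY-shRNA to EGFP of 0.212. Its exact 95% interval of 0.0394 to 0.75 covers counting error only and not the spread between libraries. The interval was computed for Syt10 alone among the weak members, and no difference is read from it.

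Of the 8 vesicle membrane genes, 0 passed limma's adjusted threshold in CCNY-shRNA, and differences between members of a family were not tested. Sv2b, a vesicle glycoprotein of the SV2 family, had an FPKM of 126 and 134 (EGFP), 129 and 122.7 (CCNY-WT) and 112 and 109 (CCNY-shRNA), and its log2 difference in CCNY-shRNA was -0.24 ± 0.057 (SE), unadjusted p = 0.00325, adjusted p = 0.0936. Both CCNY-shRNA libraries were under all others. Sv2a lay within the range of EGFP in the 4 other libraries, with an FPKM of 274 and 305 (EGFP), 289 and 286 (CCNY-WT) and 292 and 297 (CCNY-shRNA) and a 95% interval of the log2 difference of -0.12 to 0.17. Synpr, the gene of synaptoporin, which is enriched in hippocampal mossy fibre terminals, had an FPKM of 122 and 119 (EGFP), 134 and 127 (CCNY-WT) and 106 and 93.1 (CCNY-shRNA). It was lowest in both CCNY-shRNA libraries and highest in both CCNY-WT libraries, and its log2 difference in CCNY-shRNA was -0.27 ± 0.072 (SE), unadjusted p = 0.00557, adjusted p = 0.117, or -0.18 without CCNY-shRNA replicate 2. Its relative Syp had an FPKM of 1608 and 1675 (EGFP), 1626 and 1537 (CCNY-WT) and 1756 and 1595 (CCNY-shRNA), with overlapping groups and a 95% interval of the log2 difference of -0.16 to 0.22.

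Sv2c, the third SV2 gene, had an FPKM of 11.8 and 11.6 (EGFP), 10.7 and 6.996 (CCNY-WT) and 7.98 and 7.15 (CCNY-shRNA). Its log2 difference in CCNY-shRNA was -0.63 ± 0.20 (SE), unadjusted p = 0.0127, adjusted p = 0.153, and CCNY-WT replicate 2 was as low as the CCNY-shRNA libraries. The study had itself listed Sv2c among changed genes on these libraries, so this value is not independent evidence. Sypl1, Syngr1 and Syngr3 had log2 differences of -0.23, 0.005 and -0.024 and did not reach an unadjusted p under 0.05.

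Of the synapsins, which tether vesicles in the reserve pool, Syn1 had an FPKM of 326 and 316 (EGFP), 300.7 and 295 (CCNY-WT) and 298 and 287 (CCNY-shRNA) and a log2 difference in CCNY-shRNA of -0.13 ± 0.053 (SE), unadjusted p = 0.0374, adjusted p = 0.236. CCNY-WT and CCNY-shRNA both lay under EGFP. Syn3 had an FPKM of 6.39 and 6.15 (EGFP), 5.31 and 3.99 (CCNY-WT) and 4.74 and 4.35 (CCNY-shRNA) and a log2 difference of -0.47 ± 0.18 (SE), unadjusted p = 0.0302, adjusted p = 0.214, also with EGFP above both other groups. Syn2 had an FPKM of 367 and 354 (EGFP), 356 and 360.0 (CCNY-WT) and 376 and 344 (CCNY-shRNA), with overlapping groups.

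**Figure D3:**
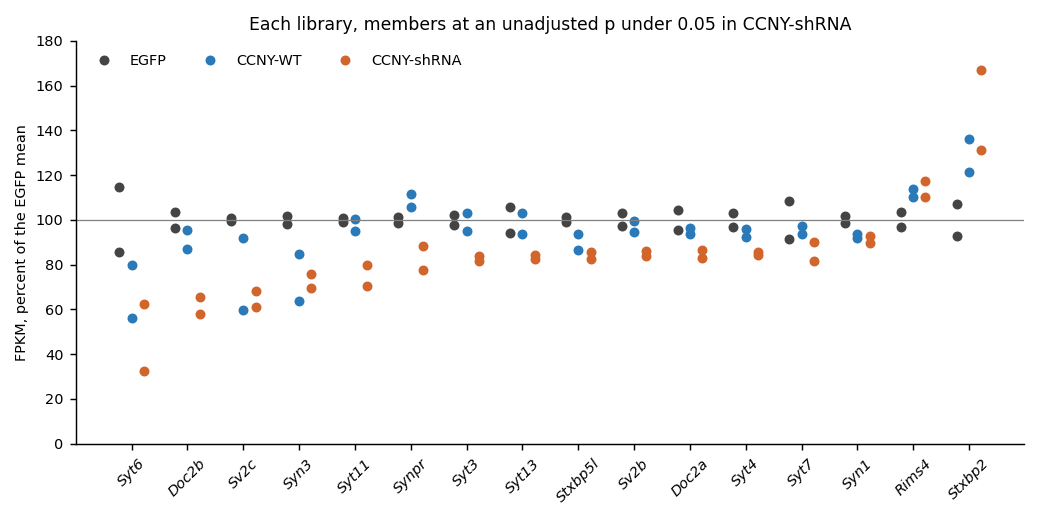
FPKM of each library as percent of the EGFP mean for the 16 members with an unadjusted limma p under 0.05 in CCNY-shRNA, ordered by their log2 difference. The CCNY-shRNA points of Doc2b lie at 58.0% and 65.3% of the EGFP mean, and only Rims4 and Stxbp2 lie above 100% in CCNY-shRNA.

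Among the genes of priming and fusion control, Stxbp5l, which encodes tomosyn-2, an inhibitor of SNARE assembly, was the only member lower at an unadjusted p under 0.05. Its FPKM was 17.7 and 18.1 (EGFP), 16.8 and 15.5 (CCNY-WT) and 14.8 and 15.3 (CCNY-shRNA), and its log2 difference in CCNY-shRNA was -0.25 ± 0.091 (SE), unadjusted p = 0.0256, adjusted p = 0.200. Stxbp2, the gene of Munc18-2, which is known from granule release in blood cells, had an FPKM of 1.65 and 1.91 (EGFP), 2.16 and 2.42 (CCNY-WT) and 2.97 and 2.33 (CCNY-shRNA). EGFP was the lowest group, and the log2 difference in CCNY-shRNA was 0.57 ± 0.21 (SE), unadjusted p = 0.0250, adjusted p = 0.198. Of this role, Stxbp3, Stxbp4, Stxbp5, Stxbp6, Cplx1, Cplx2 and Unc13b had log2 differences between -0.063 (Stxbp4) and 0.13 (Stxbp3), none at an unadjusted p under 0.05.

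Of the active zone scaffolds, Rims4, which encodes a short RIM protein, had an FPKM of 45.1 and 48.2 (EGFP), 53.1 and 51.3 (CCNY-WT) and 51.5 and 54.8 (CCNY-shRNA). EGFP was lowest, CCNY-WT and CCNY-shRNA overlapped, and the log2 difference in CCNY-shRNA was 0.19 ± 0.065 (SE), unadjusted p = 0.0212, adjusted p = 0.186. The other 7 scaffolds had log2 differences from -0.17 (Rims3) to -0.041 (Erc2), none at an unadjusted p under 0.05. Napa, the gene of alpha-SNAP, had an FPKM of 93.0 and 96.8 (EGFP), 95.7 and 98.7 (CCNY-WT) and 100.2 and 108 (CCNY-shRNA), and its log2 difference of 0.14 ± 0.06 (SE), unadjusted p = 0.0533, adjusted p = 0.277 was the third highest of the members, and 0.079 without CCNY-shRNA replicate 2. Napb and Nsf had log2 differences of 0.12 and 0.047. The endocytosis genes Dnm1, Amph and Synj1 had log2 differences of -0.021, -0.067 and -0.10, with both CCNY-shRNA libraries under EGFP for each and no unadjusted p under 0.05.

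The comparison of CCNY-WT with EGFP asks what excess CCNY does, and here 0 members passed limma's adjusted threshold, higher or lower. Of all genes tested 0.00982% were higher at that threshold, which is Ccny alone. At an unadjusted p under 0.05, 2 members (4.08%) were higher and 1 (2.04%) lower, against 3.83% and 3.00% of all genes, and without CCNY-WT replicate 2 there were 0. A mean log2 difference of at least 0.3 was reached by 2 members higher and 4 lower (8.16%), against 4.59% and 3.76% of all genes. The median log2 difference was 0.0041 over all genes, with 4948 lower and 5229 higher. Over the members it was -0.042, with 35 lower and 14 higher. The median of the members was -0.014 without CCNY-WT replicate 2, with 29 lower and 20 higher, -0.022 without EGFP replicate 2 and -0.069 without CCNY-WT replicate 1.

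Stxbp6, which encodes amisyn, a SNARE-binding regulator, had an FPKM of 6.92 and 7.82 (EGFP), 9.23 and 11.2 (CCNY-WT) and 7.56 and 7.14 (CCNY-shRNA). Both CCNY-WT libraries were above all others, and the log2 difference from EGFP was 0.47 ± 0.14 (SE), unadjusted p = 0.0120, adjusted p = 0.725. Rims4 was higher by 0.16 ± 0.065 (SE), unadjusted p = 0.0372, adjusted p = 0.725, and Syn3 lower at -0.45 ± 0.18 (SE), unadjusted p = 0.0356, adjusted p = 0.725, both on the log2 scale. Without CCNY-WT replicate 2 the value of Syn3 was -0.24. Stxbp2 had a log2 difference of 0.37 ± 0.21 (SE), unadjusted p = 0.114, adjusted p = 0.782. Syt10 followed at 0.29, a value set by the floor, since both EGFP libraries lay under 1 and the gene was tested only because CCNY-WT exceeded 1. With 0.1 added in place of the floor it was 0.45, and neither value is read as a difference. The lowest value was that of Syt6, at -0.56 ± 0.33 (SE), limma unadjusted p = 0.132, adjusted p = 0.801. Syn3 came next, followed by Sv2c, at -0.43 ± 0.20 (SE), limma unadjusted p = 0.0598, adjusted p = 0.740. Syt6 was -0.35 without EGFP replicate 1 and -0.31 without CCNY-WT replicate 1, and Sv2c was -0.74 and -0.12 without CCNY-WT replicate 1 and 2. Doc2b had a log2 difference of -0.13 ± 0.11 (SE) with a 95% interval of -0.40 to 0.13. For Syt11 the interval in CCNY-WT was -0.20 to 0.13. Both comparisons use the same EGFP libraries, so a direction that they share is no independent support.

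CCNY-shRNA was also set against CCNY-WT, which leaves the EGFP values out of the difference. This comparison uses the same CCNY-shRNA libraries and the same estimate of the spread as that with EGFP. A direction shared with that comparison is therefore no independent support. By limma's adjusted p 0 members passed, against 0.0196% of all genes higher and 0.196% lower. At an unadjusted p under 0.05, 8 members (16.3%) were lower in CCNY-shRNA and 0 higher, against 7.12% and 5.05% of all genes. They were Doc2b, Stxbp6, Sv2b, Synpr, Syt11, Syt13, Syt3 and Syt4, and without CCNY-WT replicate 1 the count was 5. All 12 synaptotagmin and Doc2 genes outside the fast sensors had values below 0 in this difference, against 29 of 49 members and 5047 of 10188 genes tested. Their median was -0.20, against -0.024 over all 49 members and 0.00098 over all genes tested. Syt10 is among the 12, but its direction was set beforehand. It passed the filter only through CCNY-WT, and its CCNY-shRNA values were set to the floor. The count carries no test. The log2 difference between the groups was -0.57 ± 0.11 (SE), unadjusted p = 0.00117, adjusted p = 0.129 for Doc2b, -0.39 ± 0.072 (SE), unadjusted p = 0.000665, adjusted p = 0.112 for Synpr and -0.38 ± 0.072 (SE), unadjusted p = 0.000775, adjusted p = 0.113 for Syt11. For Syt3 it was -0.25 ± 0.072 (SE), unadjusted p = 0.00800, adjusted p = 0.260 and for Sv2b -0.19 ± 0.057 (SE), unadjusted p = 0.00959, adjusted p = 0.264. For Syt13 it was -0.24 ± 0.076 (SE), unadjusted p = 0.0140, adjusted p = 0.293, for Syt4 -0.15 ± 0.055 (SE), unadjusted p = 0.0264, adjusted p = 0.343 and for Stxbp6 -0.47 ± 0.14 (SE), unadjusted p = 0.0118, adjusted p = 0.277. Syt6 had the lowest value, -0.57 ± 0.33 (SE), limma unadjusted p = 0.124, adjusted p = 0.539, but this rested on CCNY-shRNA replicate 1. The value of Syt6 was -0.11 without CCNY-shRNA replicate 1, -0.32 without CCNY-WT replicate 2 and -1.04 without CCNY-shRNA replicate 2. The highest were Stxbp2, at 0.20 ± 0.21 (SE), unadjusted p = 0.353, adjusted p = 0.752, then Rims3, at 0.17 ± 0.17 (SE), unadjusted p = 0.357, adjusted p = 0.754, and Pclo, at 0.14 ± 0.13 (SE), unadjusted p = 0.311, adjusted p = 0.726. Without CCNY-shRNA replicate 1 these 3 values were 0.029, 0.069 and -0.0026. Rims3 encodes a short RIM protein and had an FPKM of 6.60 and 8.95 (EGFP), 6.09 and 6.02 (CCNY-WT) and 7.32 and 6.35 (CCNY-shRNA). Pclo encodes Piccolo and had an FPKM of 17.7 and 17.96 (EGFP), 16.9 and 14.1 (CCNY-WT) and 18.8 and 15.4 (CCNY-shRNA). The CCNY-shRNA libraries overlapped with EGFP for Rims3 and with both other groups for Pclo.

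Ratios of related members within a library do not depend on the scaling of that library. The ratios shown were chosen after the values were seen and carry no test. The ratio of Doc2b to Doc2a was 0.685 and 0.671 (EGFP), 0.630 and 0.670 (CCNY-WT) and 0.473 and 0.513 (CCNY-shRNA). That of Sv2b to Sv2a was 0.459 and 0.438 (EGFP), 0.446 and 0.430 (CCNY-WT) and 0.382 and 0.366 (CCNY-shRNA). That of Syt11 to Syt1 was 0.741 and 0.707 (EGFP), 0.7502 and 0.748 (CCNY-WT) and 0.608 and 0.576 (CCNY-shRNA). In these 3 the CCNY-shRNA libraries lay under all others, by a larger gap than any between an EGFP and a CCNY-WT library. The ratio of Synpr to Syp was 0.0757 and 0.0709 (EGFP), 0.0825 and 0.0826 (CCNY-WT) and 0.0605 and 0.0583 (CCNY-shRNA), with the 3 groups apart and CCNY-WT highest. The ratio of Cplx1 to Cplx2 was 0.278 and 0.260 (EGFP), 0.257 and 0.291 (CCNY-WT) and 0.271 and 0.305 (CCNY-shRNA), with overlapping groups.

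**Figure D4:**
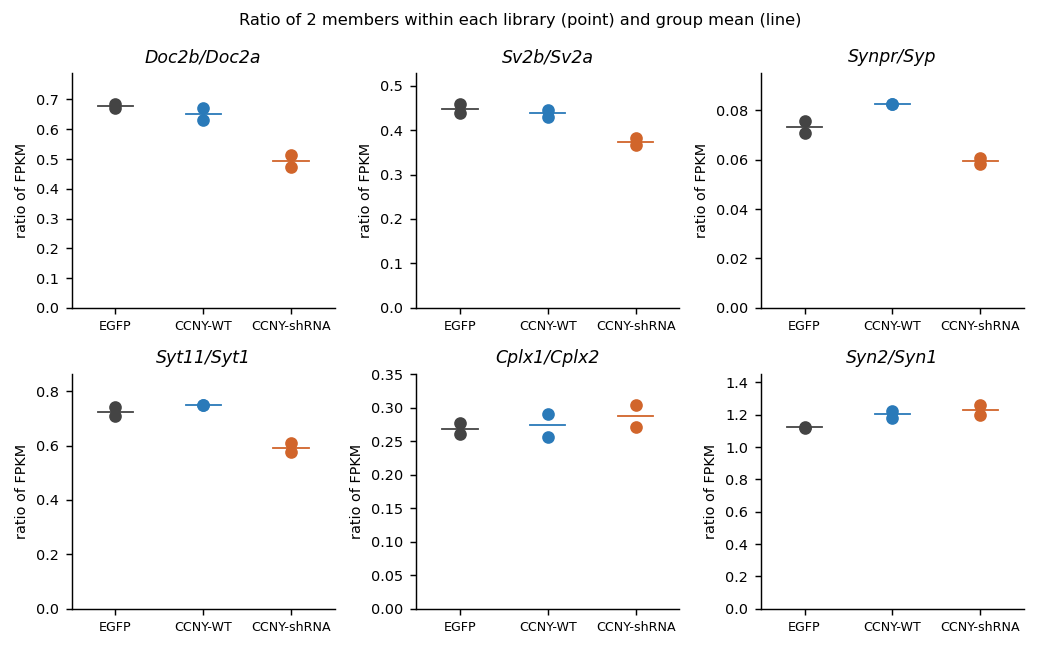
Ratio of the FPKM of 2 members within each library (points) with the group mean (line), for 6 pairs of related genes, on axes that start at 0. Doc2b/Doc2a, Sv2b/Sv2a, Synpr/Syp and Syt11/Syt1 are lowest in both CCNY-shRNA libraries, while the groups overlap for Cplx1/Cplx2 and CCNY-WT and CCNY-shRNA overlap for Syn2/Syn1.

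Other genes of the pathway were counted from 4 lists of vesicle transporters, Rab3 cycle and active zone partners, endocytosis partners, and vesicle chaperones and traffic. Of these, 60 genes were tested, and by limma's adjusted p 0 passed in each of the 3 comparisons. At an unadjusted p under 0.05, 7 (11.7%) were higher and 6 (10%) lower in CCNY-shRNA, against 9.20% and 9.36% of all genes tested, and 5 (8.33%) were higher and 2 (3.33%) lower in CCNY-WT, against 3.83% and 3.00%. The counts in CCNY-shRNA lay near those shares, and the genes are named as a description. In CCNY-shRNA the clathrin light chain genes Clta and Cltb had log2 differences of 0.26 and 0.23, the AP-2 adaptor genes Ap2a2 and Ap2m1 of 0.18 and 0.17, and the endosomal GTPase gene Rab5a of 0.33. The vesicle GTPase gene Rab3c and Apba1, the gene of the presynaptic adaptor Mint1, had 0.14 and 0.20. The lower genes were Rph3a, a Rab3 effector gene related to the Doc2 genes by its C2 domains, at -0.23, the dynamin gene Dnm3 at -0.28, the endocytic scaffold gene Itsn1 at -0.16, the kinesin gene Kif5c at -0.16, the vesicle membrane gene Scamp1 at -0.15 and Svop at -0.15. In CCNY-WT, Rab5a, Ap2a2, Scamp5, Rab3c and Clta had log2 differences of 0.30, 0.19, 0.16, 0.15 and 0.15, and Lin7a and Cadps of -0.35 and -0.14. Between CCNY-shRNA and CCNY-WT, Cltb and Sh3gl3 were higher in CCNY-shRNA and Rph3a and Slc32a1 lower at an unadjusted p under 0.05, which is 3.33% in each direction against 5.05% and 7.12% of all genes tested.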

How the data were processed

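RNA from 6 libraries of primary rat hippocampal neurons, 2 per group (EGFP, CCNY-WT, CCNY-shRNA), was sequenced after poly-T selection with a TruSeq stranded kit. The authors mapped reads with TopHat 2 to build rn4 of the rat and deposited 1 FPKM value per gene and library, computed with Cufflinks, for 17066 genes. The submitters' processing notes name TopHat2 2.0, Bowtie2 2.1.0, SAMtools 0.1.19, Cufflinks 2.2.1 and R 3.1.0. Which annotation and which scaling of libraries they used is not given in the sources used here. Strandedness in counting is not given either, so reads of overlapping genes may be shared.

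Groups were taken from the sample labels, and the 57 members from their symbols. The members and the lists of other genes were chosen with earlier results of these data known. As in the study, values under an FPKM of 1 were set to 1 before log2 transformation. The 10188 genes (49 of them members) that reached 1 in at least 2 libraries were tested two-sided in R 4.3.3 with limma 3.58.1, using lmFit and contrasts.fit and then eBayes with its trend option, over all 6 libraries without covariates. Benjamini-Hochberg adjustment ran over all genes tested, with a threshold of 0.05. The mean log2 differences of at least 0.3 (CCNY-WT) and 0.33 (CCNY-shRNA) are the thresholds of the study and carry no test. Intervals are 95% intervals. The model was run on simulated data before use, in which the spread of a gene depended only on its level. That run could not test how the model handles genes whose spread differs from others of like level.

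The table holds FPKM only, so absolute depth is unknown. Relative depths were estimated from 427 weakly expressed genes, on the assumption that their values are whole multiples of the value of 1 fragment. With these depths, the values of 97.2% of 1113 low genes came out whole within a tolerance of 0.05 fragments, against 7.73% without them. The low genes of this check can overlap with the 427. The exact interval of the ratio for Syt10 was computed from the smallest whole numbers of fragments, so true numbers may be larger. Promoter sequences are from RefSeq (GRCr8).

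Named were Ccny, the members past the adjusted threshold or at an unadjusted p under 0.05, the 3 highest and 3 lowest log2 differences in each comparison, the 10 highest members in EGFP, the highest of each role, members under 1 in every library, Sv2c, and other pathway genes at an unadjusted p under 0.05. The remaining members were given by their log2 difference or within counts, and Gad2 and Bc1 were named after their values were seen. Samples of the same number were checked for pairing: the correlation of their deviations from the group means over all genes tested was 0.053, 0.038 and 0.054 in the 3 pairs of groups (EGFP with CCNY-WT, EGFP with CCNY-shRNA, CCNY-WT with CCNY-shRNA). It was 0.144, -0.029 and 0.137 over genes with a mean FPKM of at least 5, and -0.12, -0.21 and 0.40 over the members. Alternatives covered the log scale, the filter, the scaling, a replicate block, the estimate of the spread and leaving out each library. The values of 1 member are included in the counts and medians and are not reported here. The reads and the authors' enrichment analyses were not used here. Python 3.11.15 was used with numpy 2.4.6, pandas 2.3.3, scipy 1.17.1 and, for the figures, matplotlib 3.10.9.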

Additional observations from a re-analysis of the deposited data

How the results depend on the processing

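Of the 37 log2 differences of single members that were recomputed, 1 changed direction: that of Pclo between CCNY-shRNA and CCNY-WT, which was 0.14 as reported, lay between -0.0026 and 0.28 when 1 library was left out, and at -0.0026 without CCNY-shRNA replicate 1. The cause was not tested. The count of members past the adjusted threshold in CCNY-shRNA, 1 as reported, was 2 (Doc2b and Syt11) with log2(FPKM + 1), with log2(FPKM + 0.1) and with a mean FPKM of at least 5. It was 0 without a filter, with upper quartile scaling, without a trend, in a fit of only the 2 groups compared, with the replicate number as a block, and in all 6 analyses that left out 1 library (0 to 0). The cause was not tested. In CCNY-shRNA, the number of members with an unadjusted p under 0.05, 16 as reported, ranged from 10 to 14 when 1 library was left out, with 10 without either EGFP library, and in CCNY-WT, 3 as reported, from 0 (without CCNY-WT replicate 2) to 4. Without a filter the latter was 5. Between CCNY-shRNA and CCNY-WT it ranged from 5 to 9. Leaving out 1 library moved the median log2 difference of the members in CCNY-WT between -0.069 and -0.014, in CCNY-shRNA between -0.14 and -0.0022, and between CCNY-shRNA and CCNY-WT between -0.077 and 0.0074, the last without CCNY-WT replicate 1, where its sign turned. The log2 difference of Ccny in CCNY-WT stayed between 1.33 and 1.36, but its adjusted p rose above the threshold without EGFP replicate 2 (0.0518), CCNY-WT replicate 1 (0.147) or CCNY-WT replicate 2 (0.155). Scalings moved the share of members higher in CCNY-shRNA, 28.6% as reported, to 34.7% (upper quartile) and 20.4% (quantile).

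Of 547 values of single members under alternatives, 530 kept their direction and their side of the threshold, 2 moved from a reported value of 0 (Syt10 in CCNY-shRNA, at -0.67 with log2(FPKM + 1) and -1.80 with log2(FPKM + 0.1)), 11 (Doc2b) no longer passed it and 3 (Syt11) newly passed it. Much of this agreement was fixed beforehand and does not measure stability. The filter, the estimate of the spread, the block and leaving out a library of the third group do not change a log2 difference. Of the values as reported, only that of Doc2b in CCNY-shRNA passed the threshold. The 530 also include values of Syt10 in CCNY-shRNA that the floor held at 0. Leaving out 1 library moved 11 of the 37 log2 differences by over 1.5 times. No set of genes gave a correlation over 0.1 between samples of the same number in every pair of groups. Over genes with a mean FPKM of at least 5 it was 0.144 (EGFP with CCNY-WT), -0.029 (EGFP with CCNY-shRNA) and 0.137 (CCNY-WT with CCNY-shRNA). Over the members it was -0.12, -0.21 and 0.40 in the same order. With so few libraries these values cannot show whether such samples shared a culture or batch. The replicate block left 0 members past the threshold in CCNY-shRNA, and 16 with an unadjusted limma p under 0.05. Precision is limited by 2 libraries per group and, for Syt6, Syt10, Stxbp2 and Stxbp4, by their low FPKM.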
